A study of Mus musculus with 3 samples.

Results

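The mTORC1 brakes are 9 genes whose protein products restrain the kinase complex mTORC1: Ddit4, Ddit4l, Deptor, Sesn1, Sesn2, Sesn3, Tsc1, Tsc2 and Txnip. They were taken by name, as every probe set annotated to 1 of these symbols alone, which gave 24 of the 45037 probe sets that are not controls, for 9 of the 18193 genes named on the array. The study measured RNA of splenic follicular regulatory T (Tfr) cells of C57BL/6 mice, sorted on day 8 after OVA immunization, on 3 single-colour Affymetrix arrays. The Rptor-null group was 2 pools of 8 mice each that carried CD4-Cre and floxed Rptor, labelled as biological replicates, and the WT group was 1 pool of 4 mice. CD4-Cre acts in the whole T lineage, so deletion was not limited to Tfr cells, and the labels do not say whether the WT mice carried Cre or a floxed allele.

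mTORC1 is built around the kinase mTOR and its scaffold raptor, the product of Rptor, and couples amino acids, growth factors and energy to protein synthesis and growth. The TSC complex keeps mTORC1 off by making its activator Rheb hydrolyse GTP. DDIT4, also called REDD1, strengthens TSC, sestrins hold back the amino acid arm through GATOR2 or signal through AMPK, and DEPTOR binds mTOR itself. TXNIP, an alpha-arrestin that binds thioredoxin and lowers glucose uptake, has been reported to stabilise REDD1. In T cells mTORC1 activity is required for effector regulatory T cells, and the brakes are known as stress and quiescence genes whose RNA levels respond to ATF4, p53, FoxO factors, glucocorticoids or glucose.

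The promoters of Ddit4, Txnip and Sesn3 are shown because, like Deptor, these genes had their brightest probe set called in the comparison of Rptor-null with WT cells, with Ddit4 and Txnip higher and Sesn3 lower. The sequences are those of RefSeq on build GRCm38.p6, and they cover the 250 bases before the annotated gene start, printed 5′ to 3′ on the strand of the gene. Ddit4 lies on chromosome 10 (minus strand, window 59951771 to 59952020), Txnip on chromosome 3 (plus strand, 96557707 to 96557956) and Sesn3 on chromosome 9 (plus strand, 14276051 to 14276300). Capitals mark matches on either strand to ACGTG (core of the hypoxia response element), GTAAACA (core of FoxO sites), CCAAT, or a pair of CACGNG motifs separated by 5 bases (the carbohydrate response element).
Ddit4: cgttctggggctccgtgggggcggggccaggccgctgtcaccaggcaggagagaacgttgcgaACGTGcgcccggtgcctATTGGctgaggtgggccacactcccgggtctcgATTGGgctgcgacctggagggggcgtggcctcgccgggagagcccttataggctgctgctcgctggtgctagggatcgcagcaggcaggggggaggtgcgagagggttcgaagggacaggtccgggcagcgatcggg
Sesn3: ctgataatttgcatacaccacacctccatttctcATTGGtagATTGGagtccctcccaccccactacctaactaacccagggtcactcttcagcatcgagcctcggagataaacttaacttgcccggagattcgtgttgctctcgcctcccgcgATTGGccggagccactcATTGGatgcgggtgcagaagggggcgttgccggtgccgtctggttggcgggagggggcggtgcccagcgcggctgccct
Txnip: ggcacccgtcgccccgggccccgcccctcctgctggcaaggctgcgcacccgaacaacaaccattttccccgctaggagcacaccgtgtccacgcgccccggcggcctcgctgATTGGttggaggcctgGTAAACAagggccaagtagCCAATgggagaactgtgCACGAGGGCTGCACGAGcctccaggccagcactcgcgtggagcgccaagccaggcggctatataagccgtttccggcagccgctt

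The table held promoter windows for 8 of the 9 genes, all but Deptor. Not all of these lie before the annotated gene. The Tsc1 window (28640983 to 28641232) lies mostly within the gene, which starts at 28640993, and the Tsc2 window overlaps its gene in part. Sesn1 had 2 windows, the second within the annotated gene. The pair of CACGNG motifs was found in the window of Txnip, 85 to 69 bases before the start, and in 15 of 32841 promoter windows of the same length (0.0457%). Txnip also held GTAAACA, 121 to 115 bases before the start, a match found in 3.17% of all windows. Ddit4 held ACGTG 187 to 183 bases before the start (16.6% of all windows). CCAAT was found in 5 of the 8 genes with a window and in 33.9% of all windows. No brake gene with a window held CACGTG (6.02% of all windows, a motif that contains ACGTG) or the ATF4 response core TGATGNAA (3.45%). A match describes the letters and is not evidence of binding, and no match says only that the letters are not in this window.

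Rptor itself, the targeted gene, had intensities of 353 and 412 on the Rptor-null arrays and 365 on the WT array for its brightest probe set (log2 difference 0.059 ± 0.15 SE, limma adjusted p = 0.852). Whether that probe set lies within the floxed exons is not known here, and the value checks neither the deletion nor the labels. The Gapdh control probe sets gave a 3′ over 5′ signal of 1.94 and 2.58 in Rptor-null pools and 1.11 in the WT pool. For beta-actin the same quotient was 2.65 and 2.87 in Rptor-null pools and 1.40 in the WT pool, so both were higher in the Rptor-null pools, and their part in the results was not tested. Called at a limma adjusted p under 0.05 were 2.76% of the 12721 genes tested as higher and 7.62% as lower, each gene by its brightest probe set. Of 11 Tfr and T cell marker genes, 5 were called lower and 0 higher, and 10 lay below WT on both Rptor-null arrays, with Cd44 above WT on both. Foxp3, the transcription factor that defines regulatory T cells, was among those not called and read 587 and 423 in Rptor-null pools against 752 in the WT pool (adjusted p = 0.119). Of 11 macrophage and monocyte markers, 7 were called higher and 0 lower, and all 11 lay above WT on both Rptor-null arrays, with a summed intensity of 47903 and 53989 in Rptor-null pools against 34727 in the WT pool. Of 6 tested basophil markers, 4 were called higher and 0 lower, and all 6 lay above WT on both Rptor-null arrays, with sums of 2083 and 2466 in Rptor-null pools against 1160 in the WT pool. The macrophage receptor gene Csf1r read 12569 and 14904 in Rptor-null pools and 7911 in the WT pool.

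Differences are Rptor-null minus WT on log2(intensity + 16), a scale that understates the change of dim probe sets. They were fitted with limma across the 27022 probe sets above the 40th percentile of level (35.0 intensity units), and p-values were adjusted over all of them by the Benjamini-Hochberg method. Of the 24 brake probe sets, 17 from 8 genes passed this limit on level. Among those 17, 4 were called higher at an adjusted p under 0.05, against 2.81% of all tested probe sets, and 1 was called lower, against 6.11% of all. The brake genes were chosen with earlier results of these data known, so these shares are a description only. The called genes were Ddit4, Deptor and Txnip (higher) and Sesn3 (lower). The median log2 difference was -0.057 over the 17 brake probe sets and -0.029 over all tested probe sets, with brake genes on both sides of WT. Both Rptor-null arrays lay above WT for 6 of the 17, against 35.8% of all tested probe sets, and both below WT for 10, against 43.9%. None of the 17 was at least 2-fold higher on both Rptor-null arrays, against 0.392% of all, and none was at least 2-fold lower on both, against 0.659%.

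With 1 WT array, the spread behind every test came from the 2 Rptor-null arrays (1 residual and 5.85 prior degrees of freedom), and the WT array was taken to vary as they do. Fitted without the mean-variance trend, limma called 1 probe set higher and 1 lower on the whole array, and none of the brakes (5 higher and 4 lower at an unadjusted p under 0.05, against 23.3% of all probe sets). All 5 brake calls rest on that trend. On simulated arrays of the same design, most runs gave a larger share of false calls than the threshold of 0.05 allows, so the adjusted p-values here may be too small.

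**Figure D1:**
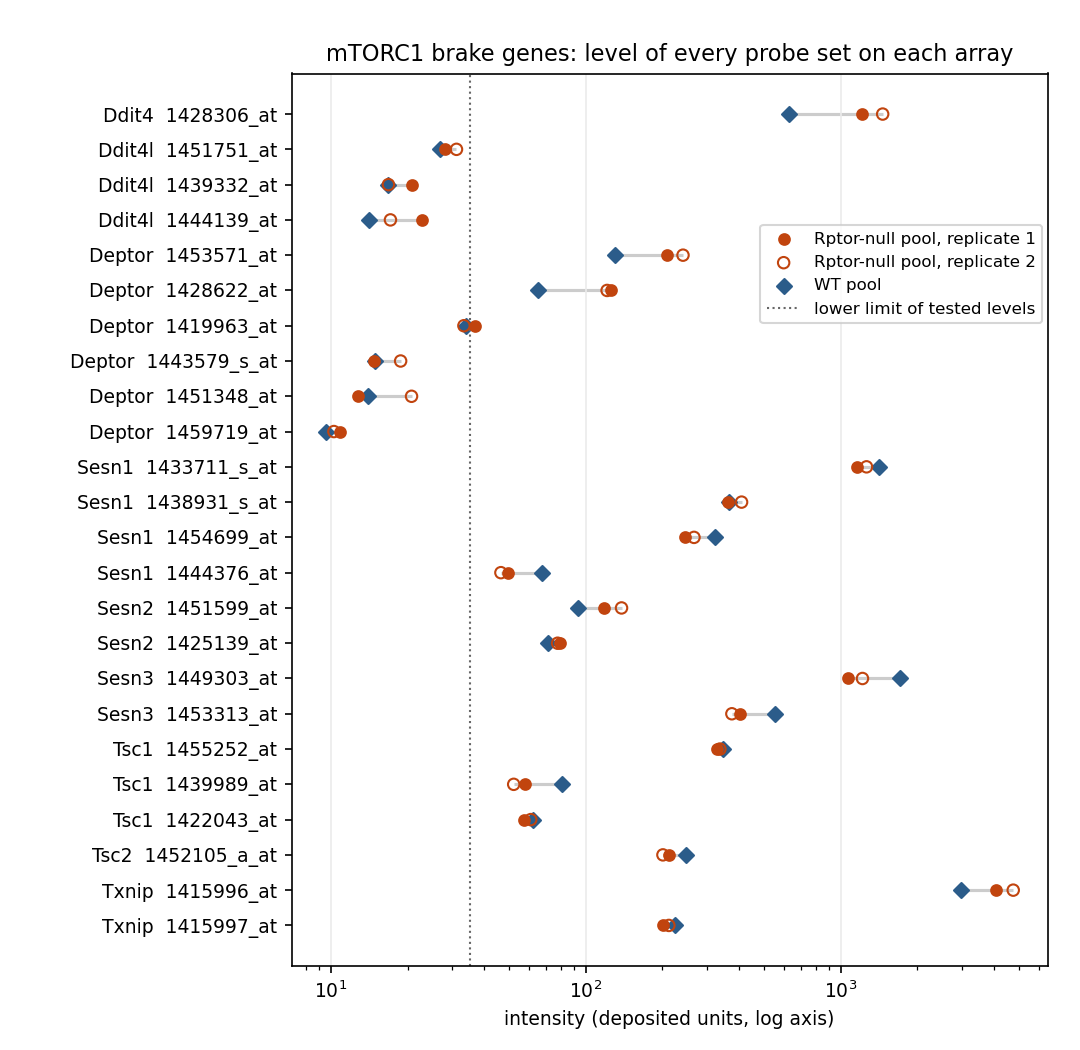
Intensity of each of the 24 probe sets of the mTORC1 brake genes on a log axis, with Rptor-null pools as circles (filled for replicate 1, open for replicate 2) and the WT pool as a diamond; the dotted line is the level of 35.0 below which probe sets were not tested. Ddit4, the 2 upper Deptor probe sets and Txnip 1415996_at lie to the right of WT on both Rptor-null arrays, and both Sesn3 probe sets lie to the left.

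Ddit4, the stress-induced activator of the TSC complex, was the brake gene with the highest log2 difference among those tested. Its single probe set (1428306_at) read 1211 and 1463 on the Rptor-null arrays, against 628 on the WT array. Both Rptor-null values were above WT, and the gap between them was smaller than the distance from WT to the nearer of them. The log2 difference was 1.07 ± 0.14 (SE), or 2.09-fold, with a 95% interval of 0.73 to 1.40 (limma adjusted p = 0.0121), and 0.481% of all tested probe sets had a higher difference. Replicate 1 alone differed from WT by 0.93 and replicate 2 by 1.20 on the log2 scale. Bright probe sets were on the whole a little lower in Rptor-null pools, and less the median of its level bin the Ddit4 difference was 1.18. RNA was extracted from pools of cells, in which fewer cells of a type and less RNA per cell cannot be told apart. The macrophage and basophil marker sums given above were also higher in both Rptor-null pools. Their part in the Ddit4 difference, and in those of the other genes reported here, was not tested.

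Ddit4l, the paralogue of Ddit4 also called REDD2, stayed below the level limit on all 3 of its probe sets. The probe set 1451751_at read 28.2 and 31.1 in Rptor-null pools, against 26.7 in the WT pool. The other two read between 16.8 and 22.9 in Rptor-null pools, against 14.1 and 16.7 in the WT pool. All 3 were a little above WT on both arrays, at levels where no test was made.

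Deptor, which encodes an inhibitor that binds mTOR in both of its complexes, is represented by 6 probe sets, and those above the level limit were both higher. The probe set 1453571_at read 209 and 241 in Rptor-null pools, against 130 in the WT pool, and its fitted log2 difference was 0.72 ± 0.17 (SE, adjusted p = 0.0470). The probe set 1428622_at read 125 and 121 in Rptor-null pools, against 65.1 in the WT pool, and here the fit gave 0.78 ± 0.17 on the log2 scale (SE, adjusted p = 0.0380). Both probe sets therefore put Deptor at 1.64-fold and 1.72-fold above WT, with 95% intervals of 0.32 to 1.12 and 0.38 to 1.18 on the log2 scale. The other 4 Deptor probe sets read at most 36.9 in Rptor-null pools and 33.9 in the WT pool and were not tested, and WT lay between the Rptor-null arrays on 3 of them. Both Deptor calls were lost when all probe sets were tested without a limit on level (adjusted p = 0.0729 and 0.0646), and that of 1453571_at also without probe sets ending in _s_at or _x_at (adjusted p = 0.0505).

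Txnip gave opposite readings on its 2 probe sets although the annotation assigns both to the same source sequence. The brighter, 1415996_at, read 4081 and 4761 in Rptor-null pools, against 2963 in the WT pool. Both Rptor-null values were above WT, by a log2 difference of 0.57 ± 0.11 (SE), or 1.49-fold (adjusted p = 0.0296). The dimmer, 1415997_at, read 200 and 212 in Rptor-null pools, against 224 in the WT pool, with both Rptor-null values below WT by -0.11 ± 0.15 on the log2 scale (SE, adjusted p = 0.708). With the mean of the 2 probe sets, the Txnip difference was 0.23 and was not called (adjusted p = 0.222). Without a limit on level, the call of 1415996_at was also lost (adjusted p = 0.0510).

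The 3 sestrins, stress-induced proteins, did not share a direction. Sesn3, a FoxO target, was lower. Its brighter probe set, 1449303_at, read 1066 and 1219 in Rptor-null pools, against 1719 in the WT pool. The log2 difference was -0.58 ± 0.12 (SE), or 1.50-fold lower, with a 95% interval of -0.87 to -0.30 (adjusted p = 0.0333). Its second probe set, 1453313_at, read 405 and 375 in Rptor-null pools, against 552 in the WT pool, which the fit put at -0.49 ± 0.13 on the log2 scale (SE, adjusted p = 0.0705). Both probe sets thus placed both Rptor-null pools below WT. The call of 1449303_at was lost after quantile normalization (adjusted p = 0.0606) and without a limit on level (adjusted p = 0.0582), while that of 1453313_at was gained when each array was centred on its median (adjusted p = 0.0471). The summed T cell markers were also lower, at 16871 and 16429 in Rptor-null pools against 25044 in the WT pool. Within that sum, Icos (2183 and 2067 against 4733) and Ctla4 (2485 and 2209 against 4713) were among those called lower. Cd3e (3575 and 3850 against 4347) and Cd4 (579 and 587 against 696) were lower by less and not called, and Cd44 was higher. The part of these markers in the Sesn3 difference was not tested.

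Sesn1, a p53 target, had 4 tested probe sets, none of them called. The brightest, 1433711_s_at, read 1162 and 1265 in Rptor-null pools, against 1413 in the WT pool (log2 difference -0.22 ± 0.11 SE, adjusted p = 0.279). The probe set 1454699_at, which the annotation assigns to the same source sequence, read 246 and 266 against 323 (-0.32 ± 0.15 SE, adjusted p = 0.238). The dimmest, 1444376_at, read 49.6 and 46.5 in Rptor-null pools against 67.7 in the WT pool (-0.39 ± 0.16 SE, adjusted p = 0.204). On these 3 probe sets both Rptor-null arrays lay below WT, but on 1438931_s_at WT, at 365, lay between the Rptor-null values of 362 and 409. Sesn2, an ATF4 target and leucine sensor, pointed the other way on both of its probe sets without passing the test. The probe set 1451599_at read 118 and 138 in Rptor-null pools, against 93.4 in the WT pool, a log2 difference of 0.39 with a 95% interval of -0.038 to 0.82 (adjusted p = 0.239). The probe set 1425139_at read 79.6 and 77.6 in Rptor-null pools, against 70.8 in the WT pool (0.12 ± 0.17 SE, adjusted p = 0.714). That interval for 1451599_at holds both no difference and a difference of the size seen for Deptor, so the fit does not settle it.

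Tsc1 and Tsc2, the scaffold and the GTPase-activating subunit of the TSC complex, were not called on any of their 4 probe sets. Tsc1 on its brightest probe set (1455252_at) read 326 and 336 in Rptor-null pools, against 345 in the WT pool. The log2 difference was -0.057, with a 95% interval of -0.38 to 0.27 (adjusted p = 0.843), and it turned to 0.044 after quantile normalization. The probe set 1422043_at had the same small difference of -0.057 (57.4 and 60.9 in Rptor-null pools, against 62.2 in the WT pool). The third Tsc1 probe set, 1439989_at, read 57.8 and 52.2 in Rptor-null pools, against 80.8 in the WT pool, and differed by -0.45 on the log2 scale with a 95% interval of -0.85 to -0.046, which leaves out 0 (unadjusted p = 0.0337, adjusted p = 0.158). Tsc2 read 213 and 201 in Rptor-null pools, against 248 in the WT pool, a log2 difference of -0.25 with a 95% interval of -0.61 to 0.12 (adjusted p = 0.377). Both Rptor-null arrays lay below WT on all 4 of these probe sets, and none passed after adjustment over all probe sets.

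**Figure D2:**
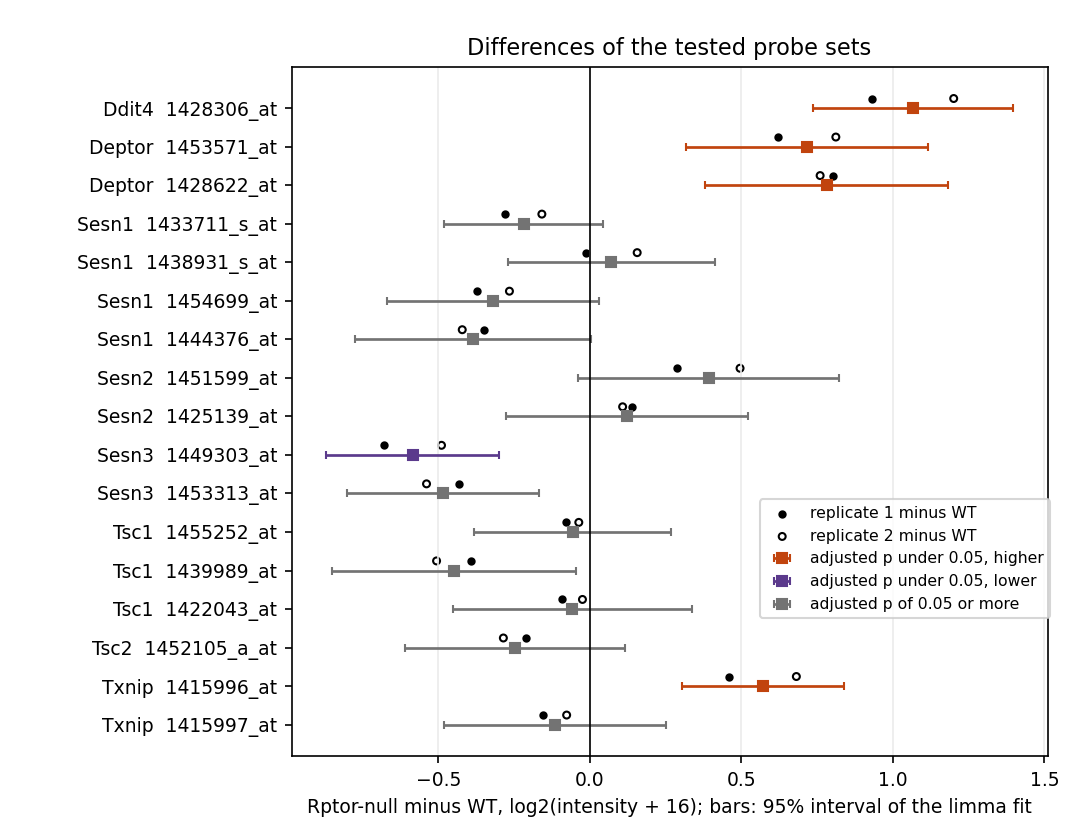
Rptor-null minus WT difference of the 17 tested brake probe sets on log2(intensity + 16); squares are the fitted difference with its 95% interval, coloured where the limma adjusted p was under 0.05, and small circles are the 2 Rptor-null arrays taken singly against WT. Ddit4 (1.07), Deptor (0.72 and 0.78) and Txnip 1415996_at (0.57) lie right of 0 with their whole interval, while the intervals of Sesn3 1449303_at (-0.58), Sesn3 1453313_at (-0.49) and Tsc1 1439989_at (-0.45) lie wholly left of 0, the last 2 with an adjusted p above 0.05.

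**Figure D3:**
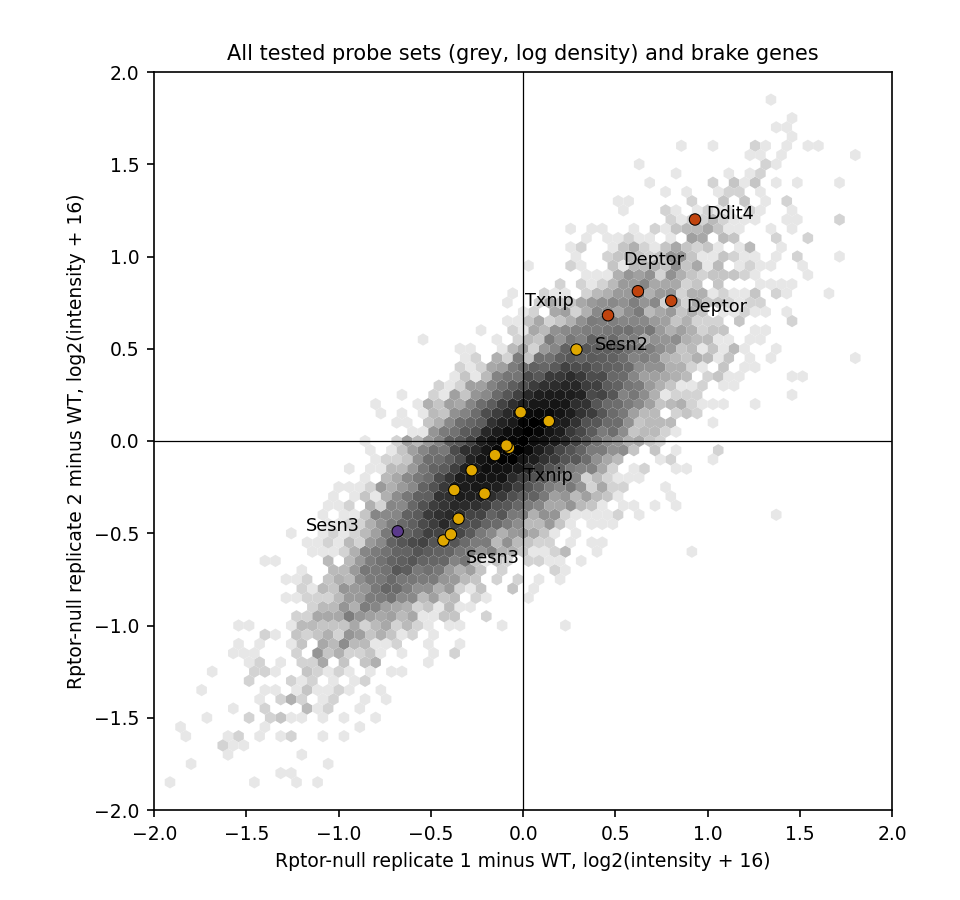
Each tested probe set by its difference from WT on Rptor-null replicate 1 (x axis) and replicate 2 (y axis), with all 27022 as a grey density and the brake probe sets as points (red called higher, purple called lower, yellow not called); 14 probe sets lie outside the range drawn. Both axes subtract the same WT array. Ddit4 (0.93 and 1.20) lies furthest to the upper right among the brake probe sets, inside the cloud of all probe sets.

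The genes nearest to Ddit4 over the 2 log2 differences, each a Rptor-null array minus WT, were Stab2, Pcolce2, Gab2, Fgr and Rhoq, at Euclidean distances of 0.011, 0.055, 0.074, 0.074 and 0.076 among 12720 other genes. Stab2, a scavenger receptor, read 499 and 612 in Rptor-null pools, against 256 in the WT pool, and Fgr, a Src-family kinase of myeloid cells, read 1533 and 1772, against 803. In all, 17 genes lay within a distance of 0.1 of Ddit4, 53 within it of Deptor (1453571_at) and 76 within it of Txnip (1415996_at). The nearest to Deptor were Pot1b, Atg4c, Pdlim4, Sdc3 and Tal1, at distances up to 0.035. The nearest to Txnip were Slc7a7, Arrdc3, Filip1l, Nupr1 and Ceacam1, at distances up to 0.021. Arrdc3, an alpha-arrestin like Txnip, read 533 and 625 in Rptor-null pools, against 386 in the WT pool (adjusted p = 0.0593). All these differences share the WT array, so nearness over 2 values is a description of these arrays only.

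Among the partners of the brakes, most genes were not called. The first list joined mTORC1 subunits and assembly factors with Rheb and with Tbc1d7, the third subunit of the TSC complex. Of its 9 genes, 0 passed in either direction by limma, and 1 had an unadjusted p under 0.05, against 27.4% of the 12721 genes tested. That gene was Tbc1d7, at 69.8 and 93.8 in Rptor-null pools against 136 in the WT pool (log2 difference -0.64, unadjusted p = 0.0173, adjusted p = 0.106), and its 2 tested probe sets lay on opposite sides of WT. The median log2 difference of the list was -0.14, against -0.060 over all genes, of which 2.76% were called higher and 7.62% lower. Mtor read 417 and 445 in Rptor-null pools against 477 in the WT pool (adjusted p = 0.571), and Rheb, the GTPase that TSC turns off, read 1644 and 1521 against 1863 (adjusted p = 0.225). Of 7 tested GATOR1, KICSTOR and CASTOR genes, which form the amino acid brake, 1 was lower and 0 were higher. It was Nprl2, a GATOR1 subunit, at 285 and 303 in Rptor-null pools against 457 in the WT pool (log2 difference -0.61, adjusted p = 0.0433). Of the 5 GATOR2 genes, whose complex the sestrins bind, 1 was lower. It was Sec13, which also serves in COPII coats and nuclear pores, at 448 and 453 in Rptor-null pools against 787 in the WT pool (log2 difference -0.78, adjusted p = 0.0170).

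Of 12 tested Rag GTPase and Ragulator genes, which place mTORC1 on the lysosome, 1 was called lower, against 7.62% of all genes, and 0 were called higher, against 2.76%. Unadjusted p-values under 0.05 were found for 7 of the 12, 3 of them higher and 4 lower, against 27.4% of all genes. The called gene was Rraga, at 272 and 333 in Rptor-null pools against 502 in the WT pool (log2 difference -0.71, adjusted p = 0.0452), while the list's median was 0.15. On the other side of WT, Fnip2, which encodes a partner of folliculin, read 108 and 129 in Rptor-null pools against 63.9 in the WT pool (log2 difference 0.75, adjusted p = 0.0534). None of the 10 tested kinases and phosphatases upstream of TSC (2 at an unadjusted p under 0.05) and none of the 8 tested mTORC1 substrates (3 at an unadjusted p under 0.05) was called, with medians of -0.057 and 0.13, and both shares can be set against the 27.4% of all genes.

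Genes that answer to the same inducers as the brakes moved in both directions. Of 8 glucocorticoid receptor genes and targets, 3 were higher and 0 lower, against 2.76% and 7.62% of all genes. Tsc22d3, the glucocorticoid-induced leucine zipper GILZ, read 2830 and 3054 in Rptor-null pools, against 1358 in the WT pool, a log2 difference of 1.10 (adjusted p = 0.00746), and all 3 of its tested probe sets were above WT. The kinase gene Sgk1 read 1852 and 2044 in Rptor-null pools, against 1291 in the WT pool (log2 difference 0.59, adjusted p = 0.0253). Zfp36, an RNA-decay factor, read 6280 and 6515 in Rptor-null pools, against 4733 in the WT pool (0.43, adjusted p = 0.0265). The receptor gene Nr3c1 (0.027, adjusted p = 0.913) and the target Fkbp5 (-0.23, adjusted p = 0.337) were not called. The list's median log2 difference was 0.13, against -0.060 over all genes.

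Of 10 tested MondoA, alpha-arrestin and thioredoxin genes, 1 was higher and 0 lower, against 2.76% and 7.62% of all genes. On both Rptor-null arrays 7 of the 10 lay below WT and 3 above, with a median log2 difference of -0.13. Arrdc4, like Txnip an alpha-arrestin induced by glucose through MondoA, read 251 and 263 in Rptor-null pools, against 140 in the WT pool, a log2 difference of 0.81 (adjusted p = 0.0264). Mlxip, which encodes MondoA, read 512 and 647 in Rptor-null pools against 501 in the WT pool (adjusted p = 0.527). Of 10 tested FoxO genes and targets, 1 was higher and 1 lower, against the same 2.76% and 7.62% of all genes. Klf2 read 4791 and 5139 in Rptor-null pools against 3626 in the WT pool (0.45, adjusted p = 0.0305), and the cell cycle inhibitor gene Cdkn1b read 1423 and 1519 against 2031 (-0.46, adjusted p = 0.0413). Foxo1 was not called (-0.16, adjusted p = 0.388).

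Of 11 tested ATF4 genes and targets, 1 was higher and 2 were lower, against 2.76% and 7.62% of all genes. Atf3 read 1378 and 1575 in Rptor-null pools against 1032 in the WT pool (0.51, adjusted p = 0.0485). Psat1, an enzyme of serine synthesis, read 446 and 381 in Rptor-null pools against 804 in the WT pool (-0.94, adjusted p = 0.0161). Atf4 itself read 2891 and 2681 in Rptor-null pools against 3780 in the WT pool (-0.44, adjusted p = 0.0381), but its 2 tested probe sets lay on opposite sides of WT. Of 8 hypoxia response genes, 1 was higher and 2 were lower, against the same 2.76% and 7.62% of all genes. Ndrg1 had a log2 difference of 0.84, Egln3 of -0.81 and Hif1a of -0.46 (limma adjusted p = 0.0159, 0.0289 and 0.0273). None of the 10 tested p53 targets was called (limma, 2 at an unadjusted p under 0.05, against 27.4% of all genes), with a median of -0.085.

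**Figure D4:**
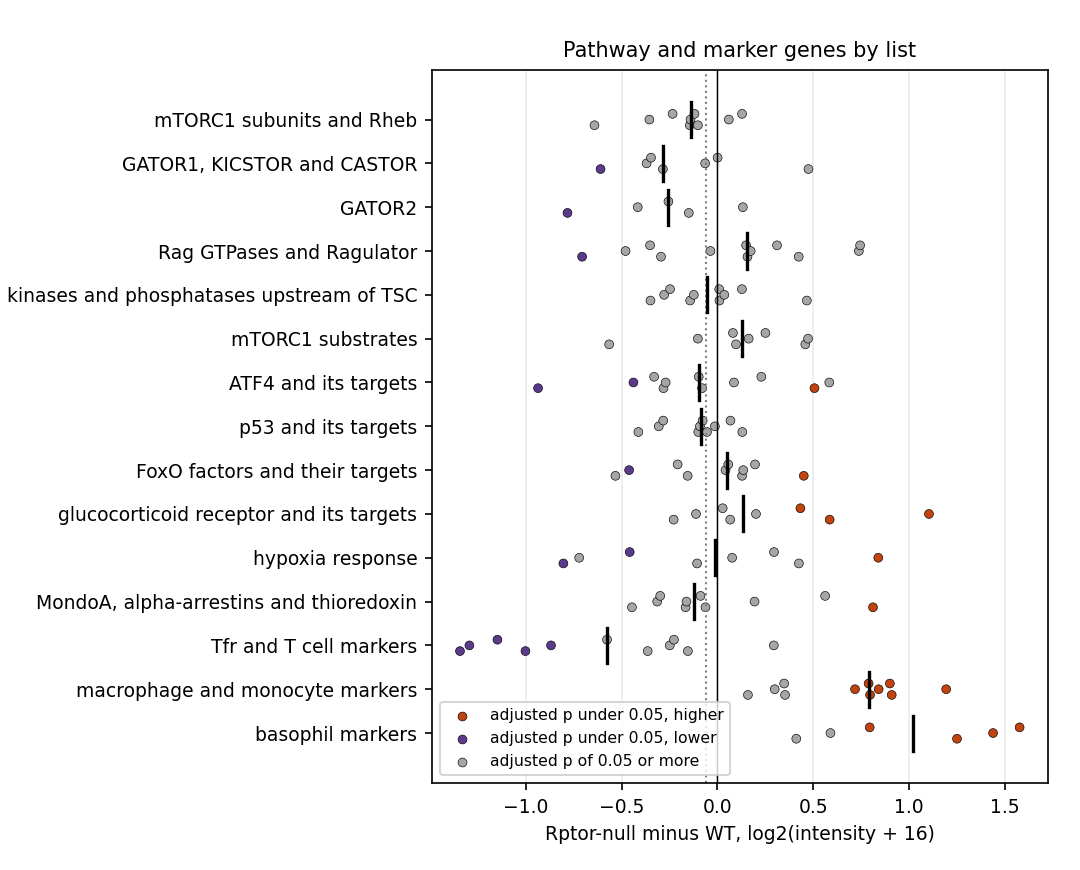
Rptor-null minus WT difference of each tested gene on its brightest probe set, by list, on log2(intensity + 16); points are red where called higher, purple where called lower and grey where not called, the black bar is the list's median and the dotted line is the median of all genes (-0.060). The macrophage and basophil lists have medians of 0.79 and 1.02 and the Tfr and T cell list one of -0.58, while the mTORC1 lists lie between -0.29 and 0.15.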

How the data were processed

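Expression was measured on 3 arrays, 2 of Rptor-null and 1 of WT Tfr cells, grouped by their titles. The deposited table holds 1 linear intensity per probe set and array. MAS5, with no version, is named per the submitters' processing notes, and how the authors scaled the intensities is not given in the sources used here. Median intensity was 55.0 and 54.9 on the Rptor-null arrays and 52.8 on the WT array. For arrays their number limits the precision.

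Gene symbols came from the platform's annotation, updated by gene identifier: 34945 named 1 gene, 932 several and 9160 none, beside 64 control probe sets that were left out. Intensities were converted to log2(intensity + 16), filtered at the 40th percentile of the mean of both group means, and fitted per probe set with limma 3.58.1 in R 4.3.3 (lmFit, eBayes with a mean-variance trend, two-sided, Benjamini-Hochberg over 27022 probe sets). p-values measure only the spread between the Rptor-null pools. For lists, a gene's brightest probe set was used and no set test was made. The fit was tested on simulated data with known changes: it recovered their direction and size, but in most runs more of its calls were false than the threshold allows.

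Named were every brake gene, Rptor, pathway list members past the test (up to 4), the factor a list is named for, and the 5 genes nearest to Ddit4, Deptor and Txnip. Of the called marker genes only Icos, Ctla4, Csf1r, Eomes and Cd8b1 were named. A few others (Mtor, Rheb, Mlxip, Fkbp5, Foxp3, Cd44, Cd3e, Cd4, Csf1r, Tbc1d7, Fnip2) were chosen after their values were seen. The members and lists were chosen with earlier results of these data known, and the promoter motifs after the calls. Alternatives were 10 refits and leaving out each Rptor-null array.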

Additional observations from a re-analysis of the deposited data

How the results depend on the processing

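The direction of the Ddit4, Deptor, Sesn3 and brightest Txnip differences held in every alternative run, and 9 of 10 refits called Ddit4. All alternatives reuse the same arrays. Both Rptor-null arrays already lay on the same side of WT for these probe sets, so leaving out an array could not turn a direction. The cause of the lost calls below was not tested, beyond the number of probe sets tested. Without the mean-variance trend the calls of Ddit4 (1.07, adjusted p = 0.0550), Deptor 1453571_at (0.72, adjusted p = 0.0751), Sesn3 (-0.58, adjusted p = 0.103) and Txnip (0.57, adjusted p = 0.115) were lost, leaving 0 brake probe sets higher and 0 lower (limma; 5 and 4 at an unadjusted p under 0.05, against 23.3% of all probe sets) and 1 higher and 1 lower on the whole array. Without a filter, which raised the number tested to 45037, Deptor (0.72), Sesn3 (-0.58) and Txnip (0.57) lost their calls, leaving 1 brake probe set higher and 0 lower (4 and 3 at an unadjusted p under 0.05, against 16.3% of all), with 454 and 969 on the whole array, against 759 and 1651. Without _s_at and _x_at probe sets Deptor 1453571_at (0.72) was lost. After quantile normalization Sesn3 (-0.48) was lost, leaving 0 brake probe sets lower (4 at an unadjusted p under 0.05, against 23.1% of all in either direction) and 987 on the whole array, Tsc1 1455252_at turned to 0.044, and 1 brake probe set, Ddit4, was at least 2-fold higher on both arrays. Median centring called 2 brake probe sets lower (6 at an unadjusted p under 0.05, against 26.9% of all in either direction). It also called 2306 lower on the whole array, against 1651. With the brightest probe set per gene 500 of 12721 genes were higher. After averaging the probe sets of each gene 467 were, with 2 brake genes higher and Txnip at 0.23.

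At least 2-fold differences on both arrays numbered 106 higher and 178 lower among 27022 probe sets. With a pseudocount of 1, 171 were higher, and with one of 64, 53 were higher and 78 lower. Out of 12721 genes rather than probe sets, 50 were higher and 76 lower with the brightest probe set of each gene. After averaging, 27 and 61 of these genes were. With a single Rptor-null array against WT, a value with no test, 217 to 236 probe sets were higher and 271 to 298 lower. Among brakes that count was 0 without replicate 2 and 1, Ddit4, without replicate 1, and Sesn1 1438931_s_at turned to -0.014 without replicate 2. By leaving out an array, log2 differences ranged from 0.93 to 1.20 for Ddit4, 0.62 to 0.81 for Deptor 1453571_at, 0.46 to 0.68 for Txnip and -0.68 to -0.49 for Sesn3. No paired analysis was possible because the WT group has 1 array, so the groups share fewer than 2 replicate numbers. Probe sets under 35.0 intensity units, 7 of 24 here, limit what can be said of Ddit4l.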

Other observations

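Markers of further cell types were measured on the same arrays. Of 4 tested B cell markers, 5 tested neutrophil markers, 3 tested dendritic cell markers and 1 tested erythroid marker, 0 were called in either direction (limma; 0, 2, 0 and 0 at an unadjusted p under 0.05, against 27.4% of all genes), with median log2 differences of -0.16, -0.21, 0.32 and 0.014. On both Rptor-null arrays 4 of the 5 neutrophil markers lay below WT and 1, S100a8, above. The 2 with an unadjusted p under 0.05 (limma) were lower. All 3 dendritic cell markers lay above WT on both arrays, and of the B cell markers 2 lay below and 1 above. The neutrophil gene S100a8 read 8161 and 8193 in Rptor-null pools, against 7644 in the WT pool. S100a9 read 6760 and 6440 in Rptor-null pools, against 7630 in the WT pool. Of 4 tested NK and CD8 T cell markers, 1 was called higher and 1 lower, against 2.76% and 7.62% of all genes. On both Rptor-null arrays 3 of the 4 lay below WT and 1 above. Eomes was higher (1309 and 1381 in Rptor-null pools, against 946 in the WT pool) and Cd8b1 lower (51.6 and 47.3 in Rptor-null pools, against 133 in the WT pool). S100a8 and S100a9 were named after their values were seen.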
